A study of Homo sapiens with 6 samples.

Results

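Chains of close ZIC2-bound regions in human embryonic stem cells are described here. A chain is a run of neighbouring regions on 1 chromosome in which each gap, from the end of a region to the start of the next, is 10 kb or less, and only chains of 3 or more regions were kept. Regions of the wild-type list and the ZNF263-knockout list were put together for this, each counted once. Of 16040 distinct regions on chromosomes 1 to 22 and X, 1676 (10.4%) lay in 499 such chains, 3576 lay in pairs and 10788 stood alone.

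H1 cells (WA01), an established line of human embryonic stem cells, were used. The wild-type group (WT) was represented by 2 anti-ZIC2 libraries, and the knockout group (KO), in which Cas9 was used to remove ZNF263 and which the labels call a homogeneous knockout, by 2 more. A normal rabbit IgG library of each genotype was not analysed here. No drug treatment or time point separates the groups, and the labels do not say whether the knockout cells are 1 clone. The assay was CUT&Tag, in which an antibody directs a transposase to the bound protein and sequencing adapters are inserted in the DNA beside it.

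ZIC2 belongs to the ZIC family of zinc-finger factors, relatives of the GLI factors, and is made in pluripotent cells and in the early neural tube. Transcription factors often occupy several sites close together, in long promoters, in groups of enhancers around a regulated gene, or in stretches where many active genes stand side by side. ZNF263 is a C2H2 zinc-finger protein that binds purine-rich DNA. The comparison asks how groups of ZIC2 regions were made up when ZNF263 was present and when it was absent.

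Each genotype has 1 deposited list of positions, with no height, score or read count, so no value below has a replicate error and the sequencing depth is unknown. A region was named shared when it was in both lists, WT-only when it was in the WT list alone, and KO-only when it was in the KO list alone. Different regions never overlapped, so a shared region has the same edges in both lists, and its width is 1 value and not a measurement of each genotype. Absence from a list says that no peak was called, and gives no level of signal. Intervals in brackets beside a percent are exact 95% binomial intervals, which cover counting error only and take regions or chains as independent. Those beside an odds ratio, factor or width ratio are 95% intervals of a regression with errors grouped by chain. They take separate chains, pairs and single regions as independent, also where these lie near one another. With 1 list per genotype, genotype and library cannot be told apart. Genes and DNA sequence at these positions were not analysed here, because the annotation at hand is of another genome build than the lists, which are on hg19.

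Most chains were short. Chains of 3 regions numbered 365 (73.1% of chains), those of 4 numbered 98 (19.6%), those of 5 numbered 30 (6.01%), and 6 chains held 6 to 8 regions. Their spans, from the first start to the last end, ran from 902 bp to 34546 bp with a median of 7488 bp (quartiles 3739 and 11187 bp). The median span was 6076 bp for 3 regions, 10048.5 bp for 4 and 13662 bp for 5. Bound regions covered a median of 14.7% of a chain's span, from 2.66% to 93.7%. In all, chains spanned 4110 kb, of which 558 kb (13.6%) were in called regions.

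**Figure D1:**
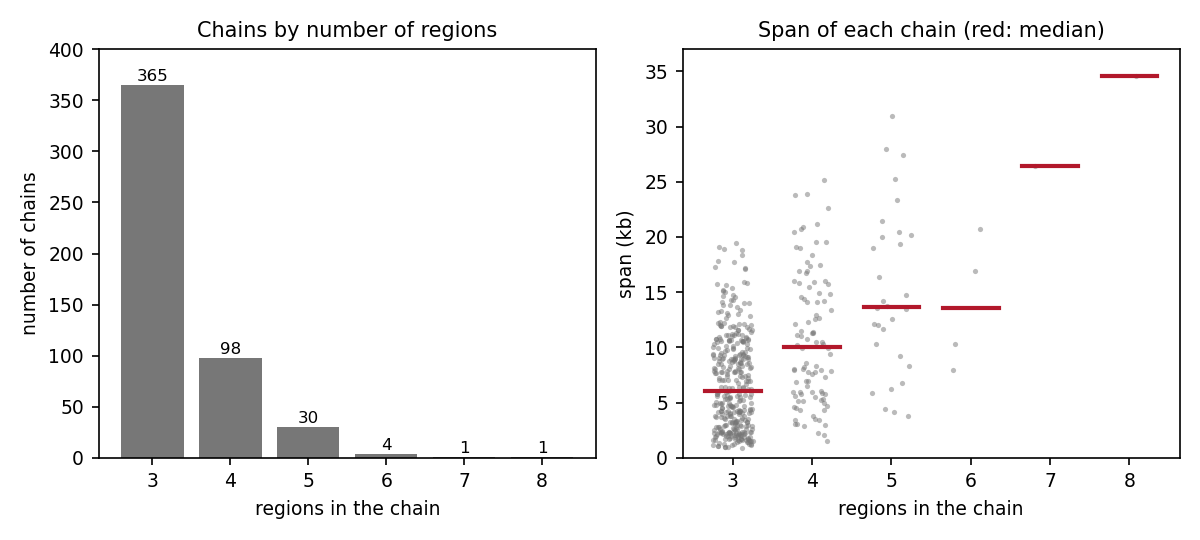
Left, the number of chains (vertical axis) with 3 to 8 regions (horizontal axis). Right, the span of each chain in kb against its number of regions, 1 grey point per chain with a red line at the median, which covers the point of the single chains of 7 and 8 regions. Chains of 3 make up 365 of the 499, and the chains of 7 and 8 regions span 26426 and 34546 bp.

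Gaps between neighbours inside chains had a median of 1764 bp and quartiles of 468 and 5146 bp. Of the 1177 gaps, 12 (1.02%) were 0 bp, 191 (16.2%) were 150 to 299 bp, and 303 (25.7%) were 5000 bp or longer. No gap lay between 0 and 150 bp. The rule that chose the chains sets the upper end of this range. The largest gaps it let in were 9974 bp on chromosome 1, 9962 bp on chromosome 20 and 9960 bp on chromosome 12, each in a chain of 3. The smallest gaps that kept a possible chain apart were 10015 and 10017 bp on chromosome 19 and 10031 bp on chromosome 22, which would have made chains of 4, 3 and 3.

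Regions in chains were more often shared than other regions, and a smaller part of them was WT-only. Of the 1676 chained regions, 518 were shared (30.9%, 28.7 to 33.2), 799 were WT-only (47.7%, 45.3 to 50.1) and 359 were KO-only (21.4%, 19.5 to 23.5). Over all 16040 regions the shares were 25.6% shared, 55.1% WT-only and 19.3% KO-only. Outside the chains, 24.97% of 14364 regions were shared and 55.9% were WT-only. In a logistic regression over all regions, with chromosome as a term and errors grouped by chain, the odds of being shared were 1.22-fold higher in chains (95% interval 1.08 to 1.37, n = 16040 regions, Benjamini-Hochberg adjusted p = 0.00148 over 3 fits). The surroundings of chained regions were also more crowded, as a rule on gaps implies. A chained region had a median of 17 other regions within 500 kb, those of its own chain included, against 8 for the rest. That number was made a further term, as log2 of 1 plus the number, in a fit chosen after seeing the data. The factor was then 0.996 (0.883 to 1.12, n = 16040 regions, adjusted p = 0.947 in the same logistic regression). The factor was 1.09 for regions wider than 150 bp and 1.17 with regions within 1 kb joined, and neither passed the threshold.

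KO-only regions held a larger part of the 1-list regions in chains than elsewhere. They were 359 of 1158 chained regions found in 1 list (31.0%, 28.3 to 33.8) and 2744 of 10777 others (25.5%, 24.6 to 26.3), against 26.0% of all 11935. The odds were 1.29-fold higher in chains (1.12 to 1.48, logistic regression, n = 11935 regions, adjusted p = 0.000964). With the number of regions within 500 kb as a term, on the same log2 scale, the factor was 1.22 (1.06 to 1.40, n = 11935 regions, adjusted p = 0.0170). It was also above 1 with width as a term, at 1.29 (1.12 to 1.48). By size, KO-only regions were 27.4% of 1-list regions in pairs and 29.4% in chains of 3. They were 36.4% (30.6 to 42.5) in chains of 4 and 29.7% (21.6 to 38.8) in chains of 5 or more. The last interval includes the 25.5% found outside chains, and the order over sizes was not tested.

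Seen from the WT list, 39.3% of chained regions (36.7 to 42.0, n = 1317) were also in the KO list, against 31.7% of all WT regions and 30.9% (30.03 to 31.7) of those outside chains. For the KO list the difference was small. Chained KO regions were also in the WT list in 59.1% of cases (55.7 to 62.3, n = 877), against 57.0% of all KO regions and 56.7% (55.4 to 57.9) of KO regions outside chains, and these intervals overlap. Chains held 66.6 KO regions per 100 WT regions, whereas other regions held 54.5. These shares do not take the number of regions within 500 kb into account.

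The make-up is also given by the number of regions in the chain. The shared part was 23.7% (22.9 to 24.5) of single regions, 28.8% (27.3 to 30.3) in pairs, 29.1% (26.5 to 31.9) in chains of 3, 32.7% (28.0 to 37.5) in chains of 4 and 37.6% (30.6 to 44.9) in chains of 5 or more. The WT-only part went from 57.3% (56.4 to 58.3) of single regions to 51.7% in pairs, 50.0% in chains of 3, 42.9% (37.9 to 47.9) in chains of 4 and 43.9% (36.7 to 51.3) in chains of 5 or more. The KO-only part was 18.97% of single regions, 24.5% (20.3 to 29.1) in chains of 4 and 18.5% (13.3 to 24.8) in chains of 5 or more. Neighbouring size classes from pairs upward had overlapping intervals for the shared part, and the order over sizes was not tested. Chromosome 19 gave 60 of the 189 regions in chains of 5 or more. Without it, in values added after seeing the data, the shared part was 22.9% of single regions, 28.2% in chains of 3 and 34.1% (25.99 to 42.97) in chains of 5 or more. The number of regions within 500 kb, with which the higher odds of being shared were no longer seen, was not taken into account here.

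**Figure D2:**
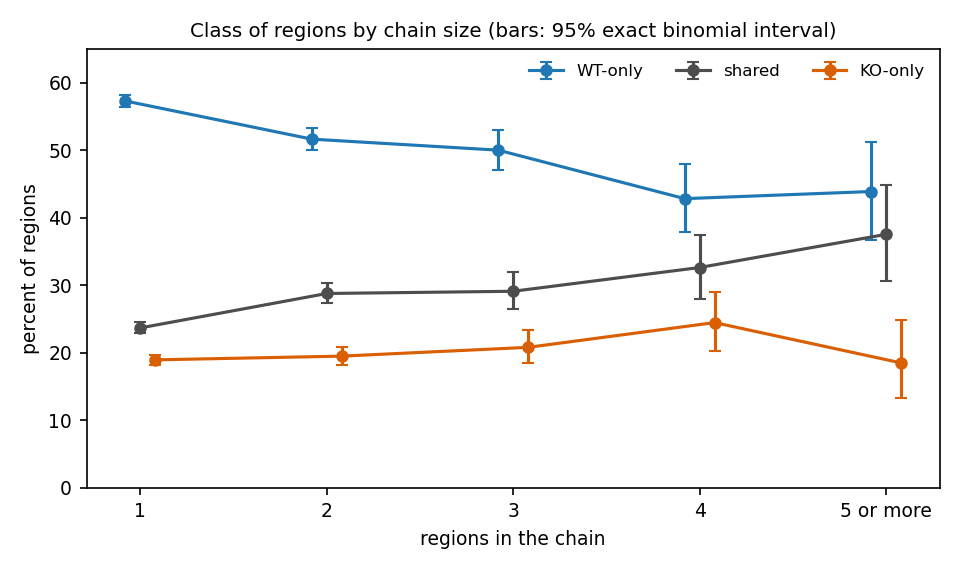
Percent of regions (vertical axis) that were WT-only, shared and KO-only among single regions, pairs and chains of 3, 4 and 5 or more (horizontal axis), with exact 95% binomial intervals as bars. The shared points lie between 23.7% for single regions and 37.6% for chains of 5 or more, while WT-only points lie between 57.3% and 42.9%.

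Of the 499 chains, 81 (16.2%) were of 1 class. The counts below stand beside shares of 55.1% WT-only, 25.6% shared and 19.3% KO-only over all regions, and whether they depart from a random mix was not tested. All regions were WT-only in 63 chains (12.6%, 9.84 to 15.9), shared in 14 (2.81%, 1.54 to 4.66) and KO-only in 4 (0.802%, 0.219 to 2.04). Shared regions stood with WT-only regions in 149 chains (29.9%) and with KO-only regions in 55 (11.0%), WT-only with KO-only regions in 100 (20.0%), and 114 chains (22.8%) held all 3 classes. WT-only and KO-only regions thus occurred within the same chain in 214 of 499 chains (42.9%, 38.5 to 47.4). The most frequent make-up was 1 shared region with 2 WT-only regions, in 65 chains, followed by 3 WT-only regions in 59 and by 2 WT-only regions with 1 KO-only region in 57.

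Counted by list, 309 chains (61.9%, 57.5 to 66.2) held more WT than KO regions, 98 (19.6%, 16.2 to 23.4) held more KO than WT regions and 92 held as many of each. The WT list is also the longer, with 12937 regions against 7208 in the KO list, and 25.6% of all regions were shared. Whether the counts in this paragraph depart from a random mix of the lists was not tested. At least 1 KO region, shared or KO-only, lay in 436 chains (87.4%, 84.1 to 90.2), and at least 1 shared region in 332 (66.5%). A chain could be made up of regions that neither list alone would have joined. In 143 chains (28.7%) both lists contributed fewer than 3 regions, 294 held 3 or more WT regions, 118 held 3 or more KO regions, and 56 (11.2%) held 3 or more of each.

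Chains were also built from each list by itself. The WT list alone gave 286 chains with 934 of its 12937 regions (7.22%), and the KO list alone gave 114 chains with 372 of its 7208 regions (5.16%). Of the 286 WT chains, 70 (24.5%) had no region called in KO, 102 had 1, 80 had 2 and 34 (11.9%) had 3 or more, and in 22 (7.69%) every region was called in KO. WT regions in these chains were called in KO in 39.5% of cases (36.4 to 42.7), against 31.1% (30.3 to 31.96) of the other WT regions, an odds ratio of 1.31 in the logistic regression (1.13 to 1.52, n = 12937 regions, p = 0.000423). Of the 114 KO chains, 6 (5.26%) had no region called in WT and 35 (30.7%) had 3 or more. KO regions in these chains were called in WT in 61.0% of cases (55.9 to 66.0), against 56.7% (55.5 to 57.9) of the others, and the odds ratio of 1.08 (0.875 to 1.33, n = 7208 regions, p = 0.482) did not pass the threshold of 0.05. Neither fit had the number of regions within 500 kb as a term. With that term, the factor for being shared in chains of both lists together was 0.996 (0.883 to 1.12).

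The 10 chains with most regions are given by position on hg19, counted from 1, because they show how the classes lay next to each other. Together they had 59 regions (28 shared, 24 WT-only, 7 KO-only), and each had at least 1 shared region. Over all regions 25.6% were shared, 55.1% WT-only and 19.3% KO-only. A chain of many regions holds a shared one more readily, and no departure from these shares was tested. The chain with most regions lay on chromosome 19 from 1241525 to 1276070 and held 8 regions over 34546 bp. Its first 3 regions were shared, among them its widest, from 1248188 to 1249342 (1155 bp). After a gap of 9452 bp came a KO-only region of 636 bp from 1259312 to 1259947, then a WT-only region of 204 bp that began at 1260802, a shared region of 274 bp and 2 WT-only regions of 150 and 290 bp. In this chain the shared regions lay mainly at 1 end and the WT-only regions at the other.

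The second chain, on chromosome 19 from 49122371 to 49148796, held 7 regions over 26426 bp. Its first 6 regions were shared, with widths between 286 and 502 bp, and its last, from 49148140 to 49148796, was KO-only and the widest (657 bp). No WT-only region lay in it, so all 6 of its WT regions were called again in KO. It was the chain with most shared regions among the 10. The chain on chromosome 19 from 49929491 to 49956903 held 3 shared and 2 WT-only regions, which alternated up to the last gap of 9876 bp. A further chain on this chromosome, from 54676744 to 54704731, began with a KO-only region of 150 bp and ended with a WT-only region of 208 bp, with 3 shared regions between them, of which those of 1073 and 664 bp touched.

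Chains of 6 regions were found on 4 other chromosomes, and each held all 3 classes with 1 KO-only region. The chain on chromosome 13 from 113540231 to 113560993 had 1 shared and 4 WT-only regions, and its KO-only region of 233 bp lay 401 bp from a WT-only region. On chromosome 17, the chain from 27038345 to 27055287 had 3 shared and 2 WT-only regions and began with its KO-only region of 522 bp. On chromosome 11, the chain from 64008335 to 64018605 had 3 shared and 2 WT-only regions and a KO-only region of 150 bp. The chain on chromosome 16 from 57505936 to 57513902 was the shortest of the 10, at 7967 bp, with 2 shared and 3 WT-only regions. Its first 3 regions, KO-only, shared and WT-only, were separated by 203 and 196 bp. Without a KO-only region were the chains on chromosome 22 from 39898146 to 39929060, with 2 shared and 3 WT-only regions, and on chromosome 2 from 232526946 to 232552233, with 1 shared and 4 WT-only regions.

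**Figure D3:**
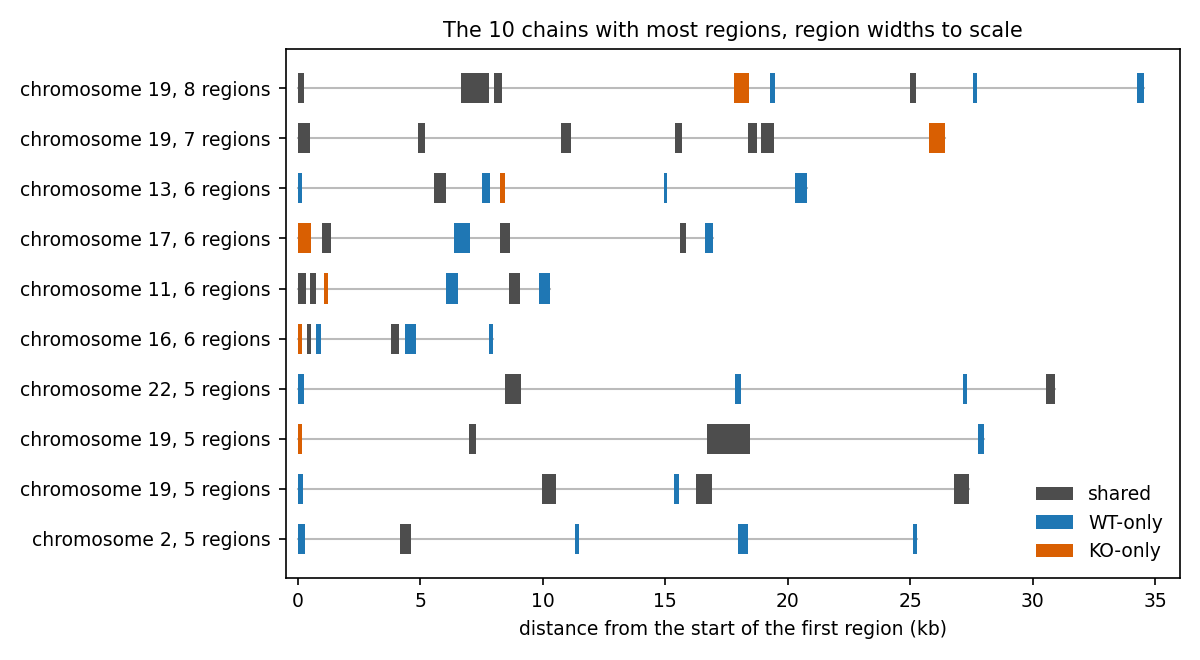
The 10 chains with most regions, each drawn on a line of its own, with the distance from the start of its first region in kb on the horizontal axis and region widths to scale (touching regions join into 1 block). Grey marks shared, blue WT-only and orange KO-only regions, and 6 of the 10 chains hold all 3 colours.

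The other 26 chains of 5 regions spanned 3820 to 23309 bp (median 12993.5 bp), and 43 of their regions were shared, 59 WT-only and 28 KO-only. A shared region was present in 22 of them, and all 3 classes in 14. These counts stand beside 25.6% shared, 55.1% WT-only and 19.3% KO-only over all regions, and were not tested against them. The most compact lay on chromosome 15 from 75742999 to 75746818, with 5 regions in 3820 bp in the order shared, WT-only, KO-only, KO-only and WT-only. Also on chromosome 15, 5 regions from 65099358 to 65103514 lay in the order WT-only, shared, WT-only, KO-only and KO-only, with the shared region (1026 bp) the widest. In both, regions of opposite class lay within 1 kb of each other.

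Chains of 1 class held at most 5 regions. The largest WT-only chain, on chromosome 5 from 42811929 to 42816359, held 5 regions of 150, 159, 155, 482 and 150 bp. Of the 3 WT-only chains of 4, the longest lay on chromosome 12 from 52513611 to 52524680, with 3 of its regions at 150 bp, the next on chromosome 1 from 6298857 to 6307151, with widths of 150, 150, 340 and 301 bp, and the shortest on chromosome 15 from 74216718 to 74220200. The largest KO-only chain, on chromosome 12 from 6480266 to 6486055, held 4 regions of 407, 165, 236 and 410 bp. Chains of 3 KO-only regions lay on chromosome 20 from 47899882 to 47908454, on chromosome 15 from 26480493 to 26488834, and on chromosome 11. The largest chain of shared regions alone, on chromosome 19 from 55972910 to 55996821, held 4 regions of 559, 271, 1225 and 439 bp, with gaps of 5738 to 7949 bp. It was followed by chains of 3 shared regions on chromosome 1 from 43814758 to 43834214 and on chromosome 12 from 57026177 to 57040171.

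Neighbours were no more often of 1 class in chains than at larger distances. Of the 1177 neighbouring pairs in chains, 466 were of 1 class (39.6%, 36.8 to 42.5), and of 13052 neighbours more than 10 kb apart, 42.8% were (41.9 to 43.6). By distance, pairs of 1 class made up 37.7% (30.8 to 45.0) at 150 to 299 bp, 40.1% at 300 to 999 bp, 32.1% (24.5 to 40.6) at 1000 to 1999 bp, 40.9% at 2000 to 4999 bp and 41.9% (36.3 to 47.7) at 5000 to 10000 bp, in no steady order. The shares of the classes differ between these sets (24.6% shared among neighbours over 10 kb apart and 31.4% in chains), which also sets how often 2 neighbours match, and no test of the match was made. A WT-only region had a KO-only region as its neighbour in 222 of the 1177 pairs (18.9%), and in 32 of the 191 pairs (16.8%) separated by 150 to 299 bp. At 5000 to 10000 bp apart, such pairs made up 19.5%. Elsewhere they were 19.97% of the pairs outside chains and 21.1% of neighbours over 10 kb apart, so they were no more frequent in chains.

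**Figure D4:**
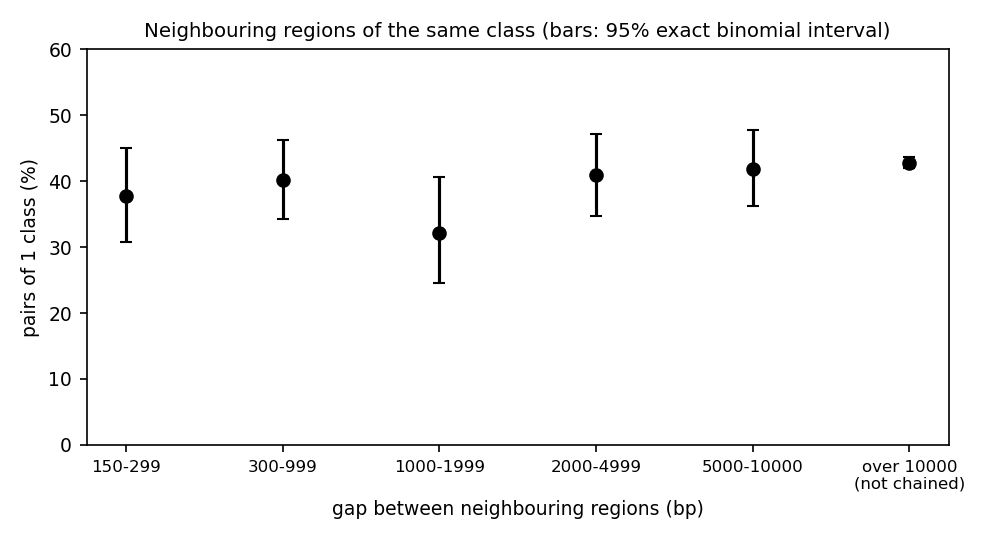
Percent of neighbouring regions that were of the same class (vertical axis), by the gap between them in bp (horizontal axis), with exact 95% binomial intervals as bars. The first 5 points are pairs inside chains, lowest at 1000 to 1999 bp (32.1%) and highest at 5000 to 10000 bp (41.9%), and the last is neighbours too far apart to be chained, at 42.8%.

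The 12 pairs of touching regions in chains were a case of their own. Each region of these pairs was at least 504 bp wide, and 6 pairs were shared on both sides, as on chromosome 2, where a shared region from 74780433 to 74781088 was followed at 74781089 by the widest shared region of any chain (1422 bp). In 5 pairs the class changed at the common edge. The lists hold positions only, so such an edge is no measured limit of binding in either genotype. On chromosome 11, a shared region from 63685189 to 63685708 met a KO-only region from 63685709 to 63687081 (1373 bp, the widest KO-only region in a chain). On chromosome 9, a shared region from 6006956 to 6007924 met a KO-only region that ended at 6008652. The widest WT-only region in a chain, on chromosome 12 from 89746635 to 89747991 (1357 bp), touched another WT-only region. These pairs were counted as 2 regions, as listed.

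Chains were also divided by spacing. In 76 chains (15.2%) every gap was under 1 kb, and these spanned a median of 1889 bp, whereas in 153 (30.7%) every gap was 1 kb or longer, with a median span of 12038 bp. Shared regions made up 28.3% (22.6 to 34.5) of the compact chains and 29.2% (25.3 to 33.4) of the spread ones, and KO-only regions 23.2% (17.99 to 29.1) and 21.7% (18.2 to 25.6), with overlapping intervals. The part of regions at the minimum width of 150 bp was 32.9% in compact chains and 19.96% in spread ones. It was 30.4% of all regions and 31.3% of regions outside chains, so the compact chains lay near the share over all regions. This division was made after the data were seen, and the differences were not tested.

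Outside chains, shared regions were the widest class as well (medians of 465 bp if shared, 180 bp if WT-only, 164 bp if KO-only). The widest region of each chain was shared in 248 of 499 chains (49.7%, 45.2 to 54.2), WT-only in 180 (36.1%) and KO-only in 71 (14.2%), and the other chained regions were shared in 22.9% of cases (20.6 to 25.5), beside 25.6% of all regions. Regions at the ends of a chain and regions inside it were shared in 29.8% (26.9 to 32.7) and 32.6% (29.1 to 36.3) of cases, and their intervals overlap. Median widths at ends and inside were 262 and 265.5 bp.

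Chained regions were slightly wider than others in all, but shared regions were narrower in chains. The median width was 264 bp in chains and 232 bp outside them, and chained regions were 1.03 times as wide in the fit on the log2 scale (1.00 to 1.06, n = 16040 regions, linear regression with chromosome as a term, adjusted p = 0.0433). Shared regions had a median of 415.5 bp in chains against 465 bp outside them. Their fitted ratio was 0.935 (0.894 to 0.979, n = 4105 regions, adjusted p = 0.0117 over the 3 classes, linear regression chosen after seeing the data). WT-only regions had medians of 195 bp in chains and 180 bp elsewhere (ratio 1.03, 0.995 to 1.07, n = 8832 regions, adjusted p = 0.123), and KO-only regions 200 and 164 bp (ratio 1.05, 0.988 to 1.11, n = 3103 regions, adjusted p = 0.123). The part at the minimum width was 31.4% for WT-only regions in chains and 40.4% outside them, and 34.3% and 45.2% for KO-only regions. The lower width of shared regions did not hold once regions within 1 kb of each other were joined and a join of different classes was counted as shared (ratio 1.01, 0.935 to 1.1004, n = 4241 regions, p = 0.737), nor for chains of 4 or more (ratio 0.965, 0.898 to 1.04). For all classes together the ratio was 0.971 with local density as a term (n = 16040 regions, adjusted p = 0.0762) and 0.964 among regions wider than 150 bp, and the call was also lost with gaps up to 5 kb (1.02), with touching regions joined (1.02) and on autosomes (1.03).

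Chains were spread over 22 of the 23 chromosomes but unevenly. Chromosome 19 held 71 chains with 256 of its 1067 regions (23.99%, 21.5 to 26.7), and 11 of the 36 chains of 5 or more regions. Next were chromosome 16 (15.8%, 13.1 to 18.8), chromosome 20 (15.6%, 12.4 to 19.2), chromosome 17 (14.9%, 12.7 to 17.3), chromosome 22 (14.7%, 11.4 to 18.5) and the X chromosome (14.4%, 10.2 to 19.5), whose intervals overlap. At the other end, chromosome 18 had 12 of 310 regions in chains (3.87%, 2.02 to 6.66), and chromosome 21 had 0 of 171, which allows up to 2.13%. A rule on gaps yields more chains wherever more regions per length were called, so this order is a description and was not tested.

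**Figure D5:**
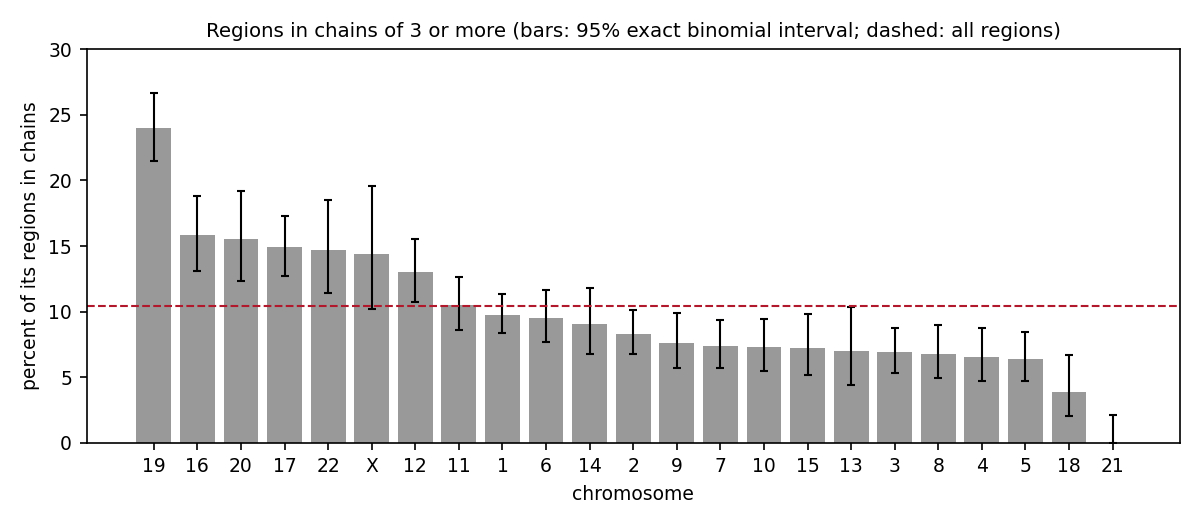
Percent of the regions of each chromosome that lay in chains of 3 or more (vertical axis), with chromosomes ordered by that percent, exact 95% binomial intervals as bars and a dashed line at 10.4%, the value for all regions. Chromosome 19 stands at 23.99% and chromosome 21 at 0.

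Chained and other regions had overlapping shares of shared regions on chromosome 19. There, 38.3% of chained regions (32.3 to 44.5) and 39.3% of other regions (35.95 to 42.8) were shared, whereas on the remaining chromosomes the shares were 29.6% (27.2 to 32.0) and 24.1% (23.4 to 24.8). KO-only regions were 34.8% (27.4 to 42.8) of chained 1-list regions on chromosome 19 and 29.3% (25.3 to 33.5) of others. Chained regions were the more often shared on 17 of the 22 chromosomes that had chains, and the more often KO-only among 1-list regions on 18. Whether the difference on chromosome 19 departs from that elsewhere was not tested. On the X chromosome, 12 of 34 chained regions were shared (35.3%, 19.7 to 53.5), against 17.3% (12.4 to 23.3) of the others. Without chromosome 19 the odds ratio for being shared was 1.27 (1.12 to 1.44, n = 14973 regions, adjusted p = 0.00047, logistic regression). That fit did not have the number of regions within 500 kb as a term. With the term, and chromosome 19 kept, the ratio was 0.996 (0.883 to 1.12).

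Some chains also lay near one another. Of the 499, 51 (10.2%) had another chain within 50 kb, 110 (22.04%) within 100 kb and 232 (46.5%) within 500 kb. A rule on gaps yields more chains where more regions per length were called, and this nearness was not tested. In 7 cases the distance was under 20 kb. The closest pair, on chromosome 16, was a chain of 4 and a chain of 3 from 2033998 to 2042453 that lay 11953 bp apart. On chromosome 17 the chain of 6 regions described above was followed after 14801 bp by a chain of 3 from 27070089 to 27072396.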

How the data were processed

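CUT&Tag of ZIC2 was done in wild-type and ZNF263-knockout H1 cells. The authors deposited 1 list of peak positions per genotype, in 3 columns (chromosome, start, end) with no height, score or count. The submitters' processing notes name Bowtie2, Picard and the build hg19. No source used here gives the peak caller, its threshold, the use of IgG or how replicates were combined. Regions on chromosomes 1 to 22 and X were joined into chains at gaps of 10 kb or less, in Python 3.11.15 with pandas 2.3.3, numpy 2.4.6 and scipy 1.17.1. Logistic and linear regressions over all regions (statsmodels 0.14.6) had chromosome as a term and errors grouped by chain, with p-values adjusted over 3 fits by Benjamini-Hochberg. Routines were tested on simulated data. Chains were named by a rule: the 10 with most regions, the 3 with most regions of each single class, the most compact and longest chains of 5 or more, and chains with one of the 5 widest regions of a class. A few further chains were given outside this rule, as examples of touching regions or of close chains, or beside chains of equal size. The members and lists were chosen with earlier results of these data known. The alternatives were other gaps and chain sizes, joined regions, wider regions, fewer chromosomes, chains of 1 list and further terms. Depth per library is unknown. Gene lists and motifs were not analysed here.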

Additional observations from a re-analysis of the deposited data

Results flagged for a closer look

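A chain outside the chromosomes compared above drew attention, because it lay in data that the comparisons left out. The unplaced contig Un_gl000220, which carries ribosomal RNA gene sequence, had 15 of its 16 regions in 1 chain from 117418 to 145457, against 8 in the largest chain on a chromosome. Of these, 6 were shared, 3 WT-only and 6 KO-only. Over the 16040 regions on the chromosomes, 25.6% were shared, 55.1% WT-only and 19.3% KO-only, and no departure from these shares was tested. Smaller chains lay on the contigs 17_gl000205_random, with 4 regions, and 7_gl000195_random, with 3.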

How the results depend on the processing

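The higher odds of KO-only among 1-list regions kept their direction and call under all 12 other settings of that fit, with factors from 1.15 (gaps up to 20 kb) to 1.45 (chains of 4 or more). The 50% reciprocal overlap is among these 12 and could not have changed the result. The odds of being shared were 1.09 for regions wider than 150 bp, 1.17 with regions within 1 kb joined and 1.08 with chains of the KO list alone, each past no threshold, and 0.996 with local density as a term. The width ratio lost its call with gaps up to 5 kb (1.02), with touching regions joined (1.02) and on autosomes (1.03), and turned to 0.964 for regions wider than 150 bp and 0.971 with local density. The ratio for shared regions lost its call for chains of 4 or more (0.965) and turned to 1.01 with regions within 1 kb joined. The causes were not tested. Chained regions numbered 967 with gaps up to 5 kb, 3043 with 20 kb, 5252 for chains of 2 or more, 581 for 4 or more, 897 for regions wider than 150 bp and 709 with regions within 1 kb joined, as looser or stricter rules make them. The shared percent was 34.3, 40.2 and 34.98 under the last 3 of these settings, and the KO-only percent of 1-list regions was 34.3 for chains of 4 or more. A 50% reciprocal overlap moved nothing, since overlapping regions have identical edges. Joining regions within 1 kb and local density were chosen after seeing the data. No paired analysis was possible because only 1 list per genotype was used, without values per library, so no replicate could be left out either. Depth cannot be weighed without read counts.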
